A study of Mus musculus with 16 samples.

Results

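The 10 genes described here are direct transcriptional targets of the tumour suppressor p53: Cdkn1a, Eda2r, Phlda3, Bax, Bbc3, Ccng1, Zmat3, Mdm2, Trp53inp1 and Sesn2. They were taken by symbol from the 57132 genes counted in mouse bone marrow, and all 10 were found and passed the filter on low counts. The question was what their transcripts did in the 8 libraries from mice given 5-fluorouracil (5-FU), against the 8 libraries from mice not given it, in each genotype. 5-FU is a pyrimidine analogue whose products block thymidylate synthase and are built into RNA and DNA.

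p53 is a transcription factor held at a low level in unstressed cells by MDM2, a ubiquitin ligase that marks it for degradation. Damage to DNA, or stress on ribosome production, frees p53 from MDM2, and it then switches on genes for cell cycle arrest, for cell death, for DNA repair and for its own restraint. Bone marrow is a dividing tissue with a low threshold for p53-driven cell death, and suppression of marrow is a known side effect of 5-FU.

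Marrow came from mice of 2 genotypes, each under 4 treatments with 2 libraries per group. The Nrf2-/- mice (KO) carry an inactive form of Nrf2, the transcription factor of the antioxidant response that is encoded by Nfe2l2, and were bred from Nrf2+/- animals. The wild-type mice (WT) were C57BL/6 males of 8 to 10 weeks, and neither age nor sex of the KO mice was given in the labels used here. The treatments were 5-FU, BMX-001 with 5-FU, BMX-001 alone and PBS, where BMX-001 is described in the labels as a radioprotector. 5-FU was dosed at 20 mg/kg with a repeat on day 7, and day 10, 3 days after the repeat, was the day of marrow collection. BMX-001 was dosed at 0.5 mg/kg, first 24 h ahead of 5-FU and then at intervals of 3 days. The labels say that marrow was isolated in duplicate without saying whether the duplicates were different animals. If they came from 1 animal, a p-value reflects technical spread between samples and no more.

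Promoter stretches of Cdkn1a and Ccng1 are shown because they held the closest scored matches to the p53 response element among these genes. The p53 response element consensus is 20 bases made of 2 adjacent copies of a 10-base unit. The consensus is its own reverse complement, so 1 search covered both strands. Only 20-base stretches that carried the fixed C and the fixed G of both units were scored. In RefSeq promoter windows of GRCm38.p6, running 250 bases upstream to 50 bases downstream of a start, 8 of the 10 genes were present with 11 windows. Capitals mark the 20 bases that matched, with lower case for the flanks, and both sequences run 5′ to 3′ on the strand of the gene. The Cdkn1a stretch lies at chr17:29090888-29090978 on the plus strand and its match lies 51 to 32 bases upstream of 1 of its starts. In the window of another Cdkn1a start, at chr17:29093519-29093818, the best scored match had 7 mismatches. The Ccng1 stretch lies at chr11:40755422-40755521 on the minus strand and its match lies 195 to 176 bases upstream of the start.
Cdkn1a: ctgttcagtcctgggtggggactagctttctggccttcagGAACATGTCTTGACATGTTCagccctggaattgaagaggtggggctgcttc
Ccng1: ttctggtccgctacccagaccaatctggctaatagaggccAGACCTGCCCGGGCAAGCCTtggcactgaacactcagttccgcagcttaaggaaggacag
Each of these differed from the consensus at 1 base, and 22 of 32851 promoter windows (0.067%) held a scored match at least that close. Bbc3 held a scored match with 3 mismatches at chr7:16309486-16309505, 97 to 78 bases upstream of 1 of its starts. A scored match at least that close was found in 1.379% of windows.
Bbc3: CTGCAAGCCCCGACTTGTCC
The best scored matches of the other genes present had 5 mismatches in Phlda3, 7 in Bax and 9 in each of Eda2r, Mdm2 and Sesn2. Stretches without the fixed C and G were not scored, even if they had fewer mismatches. These letters describe the windows and do not show binding.

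Library totals ran from 27305707 to 39909188 counts. Levels are given as normalised CPM, counts scaled to a common library total and corrected for library composition. Nfe2l2 stood at 6.48 to 16.7 CPM in the KO libraries and 102 to 122 CPM in the WT libraries. KO BMX-001 replicate 1 deviated from the rest: the nuclear transcript Malat1 reached 12210 CPM there and 2549 to 5345 CPM in the other 15 libraries. Fos, an immediate early gene, reached 300.6 CPM in WT PBS replicate 2 and 273 CPM in KO BMX-001 replicate 1.

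Across both genotypes, 4 of the 10 p53 targets rose with 5-FU and none fell in edgeR. They were Eda2r, a receptor of the tumour necrosis factor receptor family, Phlda3, a membrane-binding repressor of the survival kinase AKT, Zmat3, an RNA-binding zinc finger protein, and Ccng1, which encodes cyclin G1. The increases ran from 7.24-fold for Eda2r to 1.28-fold for Ccng1. Cdkn1a, which encodes the cell cycle inhibitor p21, missed the threshold at 1.75-fold, and 5 genes that include Mdm2 and the death genes Bax and Bbc3 had log2 fold changes of -0.10 to 0.14. A gene counts as risen or fallen at a Benjamini-Hochberg adjusted p under 0.05 over all 19152 genes tested in edgeR's quasi-likelihood model. By that rule 0.559% of all genes rose and 2.39% fell. At an unadjusted p under 0.05, 5 of the 10 were found, all higher, against 18.1% of all genes in either direction. DESeq2 called 4 of the 10 higher and 0 lower, with no adjusted p for Eda2r, against 319 higher and 873 lower of all genes. The median log2 fold change was 0.25 over the 10 genes and 0.01 over all genes. In bulk marrow, fewer cells of a type and less RNA per cell cannot be told apart.

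**Figure D1:**
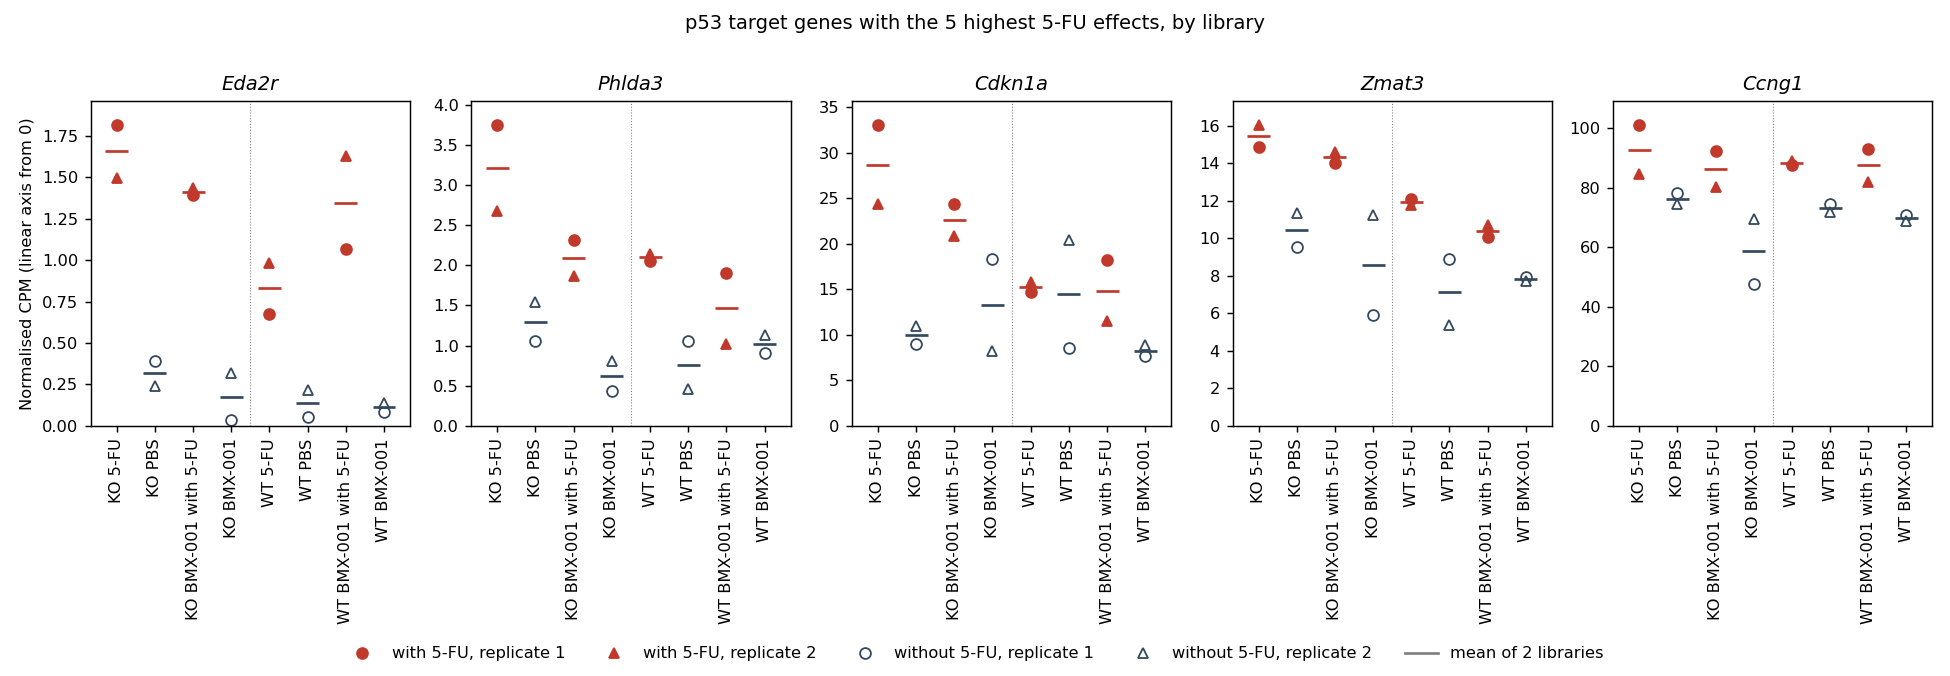
Normalised CPM (linear axes from 0) of Eda2r, Phlda3, Cdkn1a, Zmat3 and Ccng1 in each of the 16 libraries, with circles for replicate 1, triangles for replicate 2, filled red symbols with 5-FU, open symbols without, and bars at the mean of 2 libraries. Eda2r lies at 0.677 to 1.81 CPM in the 8 libraries with 5-FU and at 0.0335 to 0.394 CPM in the 8 without.

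Eda2r is the receptor for the ectodysplasin form EDA-A2 and signals to NF-kappaB and JNK. In KO marrow it stood at 1.81 and 1.4996 CPM with 5-FU and at 1.39 and 1.44 CPM with both drugs, against 0.394 and 0.241 CPM with PBS and 0.0335 and 0.318 CPM with BMX-001. In WT marrow it stood at 0.677 and 0.983 CPM with 5-FU and at 1.07 and 1.63 CPM with both drugs, against 0.0555 and 0.217 CPM with PBS and 0.085 and 0.138 CPM with BMX-001. Every library with 5-FU lay above every library without it. The levels are low, with 24 to 63 counts per library with 5-FU and 1 to 13 counts without. The log2 fold change was 2.86 ± 0.31 (SE, adjusted p = 0.000288), which ranked 2 of 19152 genes, and leaving out any 1 of the 16 libraries kept it past the threshold.

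Phlda3 competes with AKT for membrane lipids through its PH domain. Its KO levels were 3.74 and 2.68 CPM with 5-FU and 2.31 and 1.86 CPM with both drugs, against 1.06 and 1.54 CPM with PBS and 0.435 and 0.809 CPM with BMX-001. Its WT levels were 2.06 and 2.14 CPM with 5-FU and 1.91 and 1.02 CPM with both drugs, against 1.05 and 0.462 CPM with PBS and 0.907 and 1.13 CPM with BMX-001. The KO groups did not overlap, while in WT 1 library with both drugs, at 1.02 CPM, lay within the range without 5-FU. Over both genotypes it rose on the log2 scale by 1.25 ± 0.21 (SE; adjusted p = 0.00571), also with any 1 library left out.

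Cdkn1a encodes p21, the inhibitor of cyclin-dependent kinases through which p53 halts the cell cycle. In KO marrow its levels were 33.0 and 24.4 CPM with 5-FU and 24.3 and 20.8 CPM with both drugs, against 8.96 and 11.0 CPM with PBS and 18.3 and 8.26 CPM with BMX-001. In WT marrow they were 14.8 and 15.8 CPM with 5-FU and 18.2 and 11.5 CPM with both drugs, against 8.61 and 20.4 CPM with PBS and 7.62 and 8.83 CPM with BMX-001. The highest values without 5-FU came from WT PBS replicate 2 (20.4 CPM) and KO BMX-001 replicate 1 (18.3 CPM), and the other 6 libraries without 5-FU lay at 7.62 to 11.0 CPM. These 2 libraries also had the high Fos levels. Means were 20.4 ± 6.85 CPM with 5-FU and 11.5 ± 4.98 CPM without (SD, n = 8 each). The log2 fold change of 0.81 ± 0.20 (SE, 95% interval 0.36 to 1.25) did not pass over all 16 libraries (adjusted p = 0.0602). With 1 library left out it passed in 2 of 16 fits, those without KO BMX-001 replicate 1 (0.98 ± 0.21, adjusted p = 0.0322) or WT PBS replicate 2 (adjusted p = 0.0132), with adjusted p up to 0.15 in the others. Without both, a fit added after seeing the data, the value was 1.16 ± 0.13 (adjusted p = 0.00033). Since these libraries hold the highest Cdkn1a values without 5-FU, their removal raises the difference by construction, and that value is a description and no independent support.

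Ccng1 and Zmat3 belong to the genes that act back on p53 or on its targets. Cyclin G1 brings the phosphatase PP2A to MDM2, and the protein of Zmat3 binds RNA and shapes the splicing and stability of transcripts. Ccng1 levels in KO were 100.9 and 84.7 CPM with 5-FU and 92.2 and 80.1 CPM with both drugs, against 78.0 and 74.6 CPM with PBS and 47.5 and 69.6 CPM with BMX-001. In WT they were 87.5 and 89.0 CPM with 5-FU and 92.9 and 82.0 CPM with both drugs, against 74.3 and 71.8 CPM with PBS and 70.8 and 68.8 CPM with BMX-001. As with Eda2r, all 8 libraries with 5-FU lay above all 8 without, and these 2 of the 10 genes showed that separation, against 0.146% of all genes. Ccng1 rose on the log2 scale by 0.36 ± 0.08 (SE; adjusted p = 0.0234).

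Zmat3 levels in KO were 14.8 and 16.01 CPM with 5-FU and 14.0 and 14.6 CPM with both drugs, against 9.54 and 11.3 CPM with PBS and 5.89 and 11.2 CPM with BMX-001. In WT they were 12.1 and 11.7 CPM with 5-FU and 10.1 and 10.7 CPM with both drugs, against 8.88 and 5.35 CPM with PBS and 7.93 and 7.70 CPM with BMX-001. The groups were apart within each genotype, while 2 KO libraries without 5-FU, at 11.3 and 11.2 CPM, lay within the range of the WT libraries with 5-FU. Zmat3 rose on the log2 scale by 0.61 ± 0.13 (SE; adjusted p = 0.0235). With 1 library left out, Ccng1 passed in 6 of 16 fits and Zmat3 in 5 of 16, with adjusted p up to 0.0839 and 0.0734. Ccng1 passed without WT PBS replicate 1, either KO BMX-001 replicate, KO 5-FU replicate 2, or replicate 2 of BMX-001 with 5-FU in KO or in WT. Zmat3 passed without WT PBS replicate 1, KO PBS replicate 2, either KO BMX-001 replicate or KO 5-FU replicate 1.

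**Figure D2:**
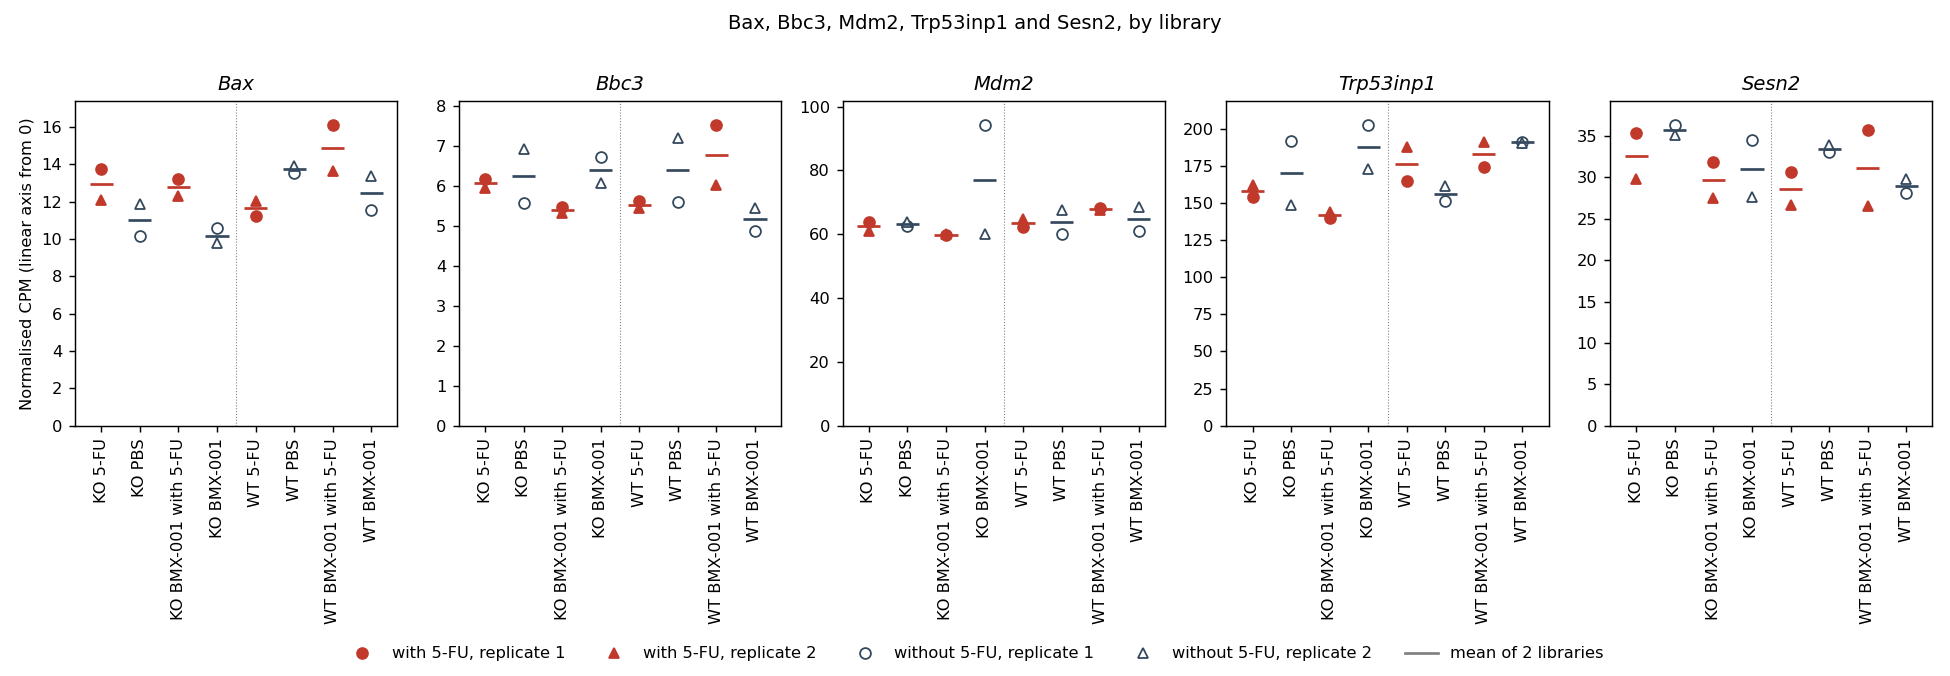
Normalised CPM (linear axes from 0) of Bax, Bbc3, Mdm2, Trp53inp1 and Sesn2 in each of the 16 libraries, with symbols as in the plot of the 5 genes with the highest 5-FU effects. Over both genotypes the ranges with and without 5-FU overlap in each panel, while within KO those of Bax do not. The Mdm2 value of 94.1 CPM in KO BMX-001 replicate 1 lies above all others.

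Bax and Bbc3 encode the mitochondrial arm of p53-driven death, BAX as the pore former of the outer membrane and BBC3 (PUMA) as an activator of it. Bax stood in KO at 13.7 and 12.1 CPM with 5-FU and 13.2 and 12.3 CPM with both drugs, against 10.1 and 11.9 CPM with PBS and 10.6 and 9.79 CPM with BMX-001. In WT it stood at 11.2 and 12.0 CPM with 5-FU and 16.1 and 13.6 CPM with both drugs, against 13.5 and 13.9 CPM with PBS and 11.5 and 13.4 CPM with BMX-001. The KO groups did not overlap and the WT groups did. The log2 fold change over both genotypes was 0.14 ± 0.07 (SE, 95% interval -0.01 to 0.30, adjusted p = 0.306). Bbc3 averaged 5.93 ± 0.704 CPM with 5-FU and 6.05 ± 0.822 CPM without (SD, n = 8 each), with overlapping ranges of 5.32 to 7.51 CPM and 4.87 to 7.20 CPM. Its log2 fold change was -0.03 ± 0.09 (SE, 95% interval -0.23 to 0.17, adjusted p = 0.906).

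Mdm2 encodes the ligase that restrains p53, and its own transcription is a standard readout of p53 activity. It stood at 59.6 to 68.2 CPM with 5-FU (median 63.2), and without 5-FU at 59.99 to 68.6 CPM in 7 libraries and at 94.1 CPM in KO BMX-001 replicate 1. Apart from that library the ranges coincided, and the log2 fold change was -0.08 ± 0.08 (SE, 95% interval -0.25 to 0.09, adjusted p = 0.624). Without that library it was 0.01 ± 0.04 (adjusted p = 0.913). Trp53inp1, a nuclear protein induced by stress that acts with kinases of p53, averaged 165 ± 18.8 CPM with 5-FU and 176 ± 20.6 CPM without (SD, n = 8 each). Its log2 fold change was -0.10 ± 0.06 (SE, 95% interval -0.24 to 0.04, adjusted p = 0.439). Sesn2, a leucine sensor that dampens mTORC1, averaged 30.5 ± 3.65 CPM with 5-FU and 32.3 ± 3.34 CPM without (SD, n = 8 each). Its log2 fold change was -0.08 ± 0.08 (SE, 95% interval -0.24 to 0.09, adjusted p = 0.627). Each of these intervals excludes a change of the size seen for Zmat3 in the pooled fit. Annotated genes overlap 3 of the loci: Gm12981 overlaps Sesn2 and had 0.437 to 3.22 CPM, AC167363.2 lies opposite Cdkn1a and had at most 0.146 CPM, and Gm45808, listed at 0, overlaps Bax. Whether counting used strand is not given in the sources used here.

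**Figure D3:**
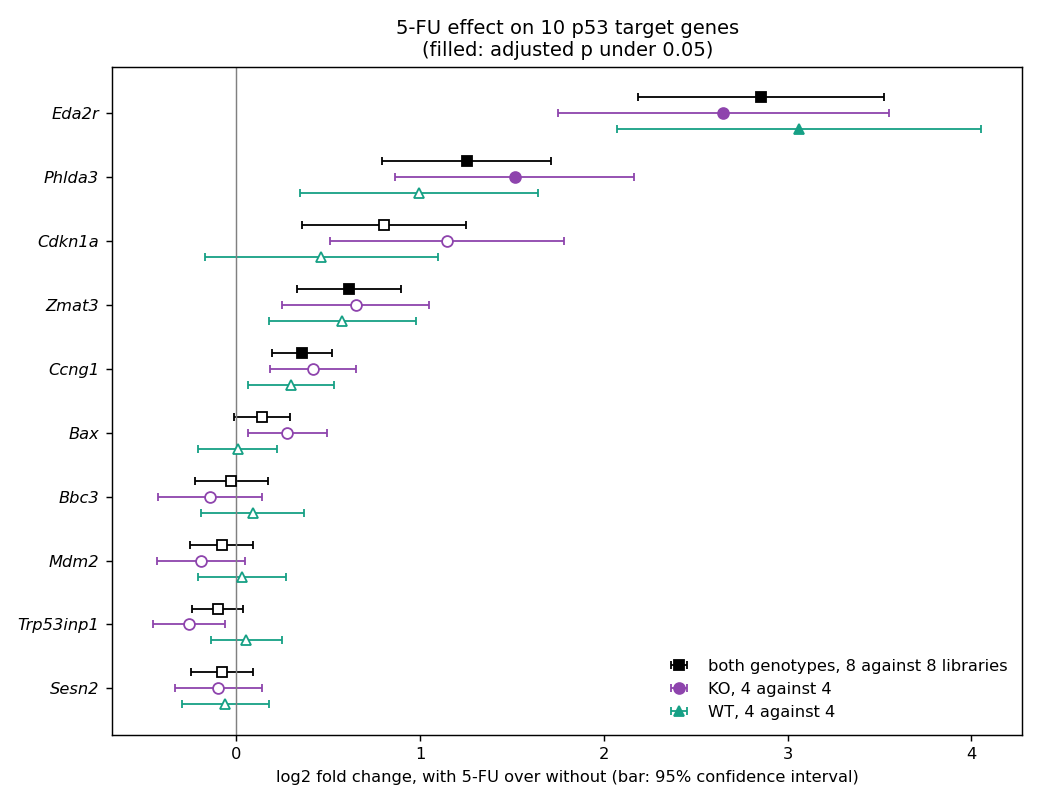
Log2 fold changes with 5-FU over without (x axis, bars are 95% confidence intervals) for the 10 genes, in both genotypes (squares), KO (circles) and WT (triangles), filled where the adjusted p was under 0.05. Eda2r is filled in all 3, at 2.86, 2.65 and 3.06, and the intervals of Bbc3, Mdm2 and Sesn2 include 0 in all 3.

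Within KO marrow, Eda2r and Phlda3 rose, 2 of the 10 genes against 0.162% of all genes. Eda2r rose on the log2 scale by 2.65 ± 0.42 (SE; adjusted p = 0.00476) and Phlda3 by 1.51 ± 0.30 (SE, adjusted p = 0.019). Phlda3 no longer passed without KO PBS replicate 1, KO 5-FU replicate 1 or either KO library with both drugs, with adjusted p up to 0.0983. Cdkn1a averaged 25.7 ± 5.196 CPM with 5-FU and 11.6 ± 4.61 CPM without in KO (SD, n = 4 each), and its effect of 1.15 ± 0.29 on the log2 scale did not pass (SE, adjusted p = 0.0799). Zmat3 at 0.65 ± 0.18, Ccng1 at 0.42 ± 0.11 and Bax at 0.28 ± 0.10 did not pass either, with adjusted p of 0.106, 0.0762 and 0.193. For 6 of the 10 genes, namely these 4 with Eda2r and Phlda3, every KO library with 5-FU lay above every KO library without it, against 3.49% of all genes. Trp53inp1 had a log2 fold change of -0.25 ± 0.09 (SE, adjusted p = 0.191).

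Within WT marrow, Eda2r was the 1 gene of the 10 that rose, against 0.0104% of all genes, by 3.06 ± 0.46 in log2 (SE; adjusted p = 0.0387). With 1 library left out it passed in 3 of 16 fits, those without WT PBS replicate 1, KO BMX-001 replicate 1 or KO BMX-001 replicate 2, and the adjusted p ran from 0.00084 to 0.365 over the 16. Phlda3 at 1.00 ± 0.30, Zmat3 at 0.58 ± 0.19 and Ccng1 at 0.30 ± 0.11 did not pass, with adjusted p of 0.286, 0.322 and 0.393. Cdkn1a averaged 15.1 ± 2.78 CPM with 5-FU and 11.4 ± 6.05 CPM without in WT (SD, n = 4 each), with an effect of 0.46 ± 0.29 on the log2 scale (SE, 95% interval -0.17 to 1.10, adjusted p = 0.655). Eda2r, Ccng1 and Zmat3 had no overlap between the WT groups, 3 of 10 against 3.21% of all genes.

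The library that stood apart changed which genes passed. It held the highest Cdkn1a level among the KO libraries without 5-FU, so leaving it out raises the Cdkn1a effect by construction. For Cdkn1a the fit without it is a description and no independent support. Without KO BMX-001 replicate 1, 5 of the 10 genes rose over both genotypes, Cdkn1a with the other 4, while the share of all genes that rose was 2.35%. In that fit 3 genes rose in KO, Eda2r (2.26 ± 0.35, adjusted p = 0.000758), Phlda3 (1.33 ± 0.30, adjusted p = 0.0179) and Ccng1 (0.29 ± 0.07, adjusted p = 0.0374), against 0.376% of all genes. Also 3 rose in WT, Eda2r (3.06 ± 0.35, adjusted p = 0.000887), Zmat3 (0.58 ± 0.12, adjusted p = 0.0256) and Ccng1 (0.30 ± 0.07, adjusted p = 0.0299), against 0.564% of all genes. With WT PBS replicate 2 left out as well, again as a description for Cdkn1a, its log2 fold change was 1.49 ± 0.18 in KO (adjusted p = 0.000747) and 0.84 in WT (adjusted p = 0.0588). In that fit Zmat3 passed in KO (adjusted p = 0.00926), as did Eda2r, Phlda3 and Ccng1, while Zmat3 and Ccng1 no longer passed in WT (adjusted p = 0.0531 and 0.0782).

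The difference between the genotypes in the 5-FU effect was tested directly as an interaction. None of the 10 genes passed in edgeR, and 0% of all genes did. At an unadjusted p under 0.05, 1 of the 10 was found, Trp53inp1, against 6.79% of all genes, and DESeq2 called none, though it gave an adjusted p for 1 of the 10 genes only. Cdkn1a had the highest value, with a 5-FU effect larger in KO than in WT by 0.68 ± 0.41 on the log2 scale (SE, 95% interval -0.21 to 1.57, adjusted p = 0.691). That value ran from 0.31 to 1.02 with 1 library left out and did not pass in any of those fits. It was 1.02 ± 0.42 (SE) without KO BMX-001 replicate 1. That library held the highest Cdkn1a level among the KO libraries without 5-FU, so leaving it out raises the value by construction. Trp53inp1 had a difference of -0.31 ± 0.13 (SE, adjusted p = 0.689) and Eda2r of -0.41 ± 0.63 (SE, 95% interval -1.78 to 0.96, adjusted p = 0.844). The intervals of Cdkn1a and Eda2r are wide enough to hold differences larger than the pooled effect of Zmat3.

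KO and WT marrow were also compared directly. With 5-FU, Cdkn1a lay at 20.8 to 33.0 CPM in KO and 11.5 to 18.2 CPM in WT, and Zmat3 at 14.0 to 16.01 CPM in KO and 10.1 to 12.1 CPM in WT. Trp53inp1 lay the other way, at 140 to 162 CPM in KO and 165 to 191 CPM in WT. In these 3 genes the genotypes did not overlap, 2 of 10 with KO above against 3.27% of all genes, and 1 of 10 with KO below against 4.02%. None of the 10 passed in edgeR (0.0992% of all genes did, adjusted p of the 10 genes 0.478 to 0.999), 3 had an unadjusted p under 0.05 (7.05% of all genes) and DESeq2 called none. The log2 differences were 0.76 ± 0.29 for Cdkn1a, 0.42 ± 0.18 for Zmat3 and -0.26 ± 0.09 for Trp53inp1 (SE). Without 5-FU the 10 genes differed by -0.31 (Bax) to 0.94 (Eda2r), with adjusted p of 0.303 to 0.956, and 0.0574% of all genes passed. There 1 of the 10 had an unadjusted p under 0.05 (14.3% of all genes), DESeq2 called none, and no gene of the 10 had KO libraries all above WT (2.02% of all genes) or all below (2.84%). When KO BMX-001 replicate 1 was left out, the log2 differences without 5-FU that lay furthest from 0 were 1.33 for Eda2r, 0.54 for Zmat3 and -0.33 for Bax. None of the 10 genes passed in that fit.

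**Figure D4:**
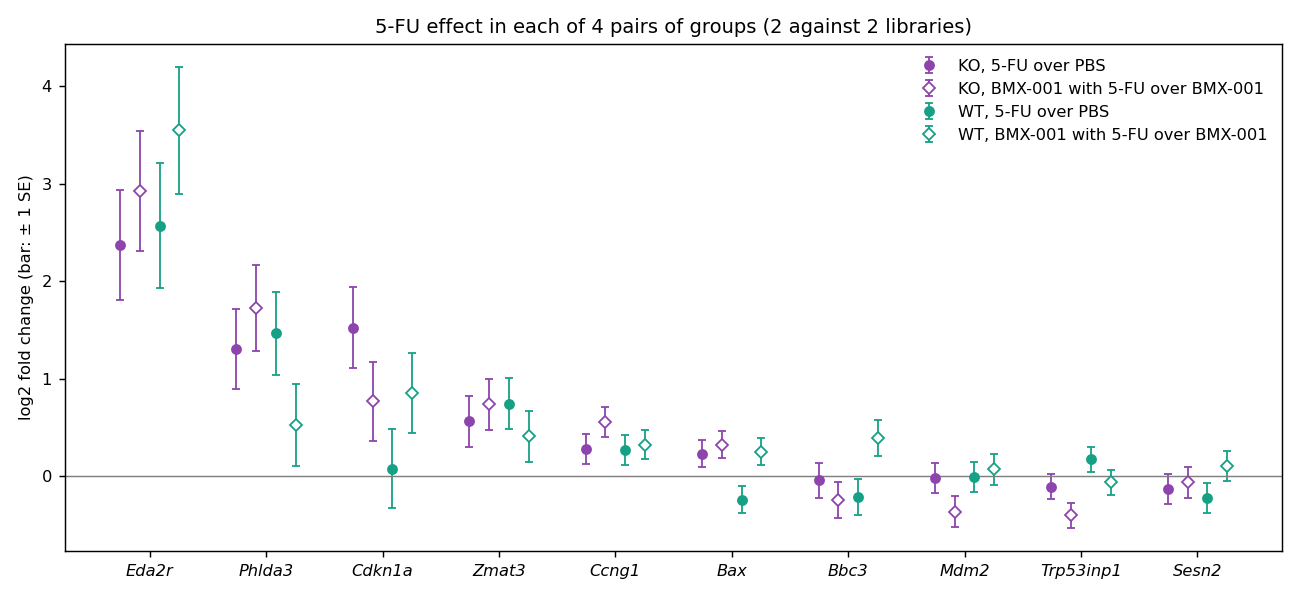
Log2 fold changes (y axis, bars are ± 1 SE) of the 10 genes for 5-FU over PBS (filled circles) and BMX-001 with 5-FU over BMX-001 (open diamonds) in KO and WT, 2 against 2 libraries each. Eda2r lies between 2.37 and 3.55 in the 4 comparisons and Cdkn1a between 0.08 and 1.53.

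The 5-FU effect can be split into 4 comparisons of 2 libraries against 2, and Eda2r had the highest value of the 10 genes in each. Eda2r had log2 fold changes of 2.37 ± 0.56 for 5-FU over PBS and 2.93 ± 0.61 for both drugs over BMX-001 in KO, and of 2.57 ± 0.65 and 3.55 ± 0.65 in WT (SE). Phlda3 had 1.30 ± 0.41 and 1.73 ± 0.44 in KO, and 1.47 ± 0.43 and 0.52 ± 0.42 in WT, in the same order of comparisons. Cdkn1a had a wide range, at 1.53 ± 0.41 and 0.77 ± 0.41 in KO and at 0.08 ± 0.40 and 0.85 ± 0.41 in WT. The WT value of 0.08 has WT PBS replicate 2, at 20.4 CPM, among its 4 libraries, and the KO value of 0.77 has KO BMX-001 replicate 1, at 18.3 CPM. Zmat3 lay between 0.41 and 0.74 and Ccng1 between 0.27 and 0.56. Without KO BMX-001 replicate 1, both drugs over BMX-001 in KO gave 1.45 ± 0.51 for Cdkn1a, 2.14 ± 0.55 for Eda2r, 1.36 ± 0.48 for Phlda3, 0.35 ± 0.21 for Zmat3 and 0.31 ± 0.12 for Ccng1 (SE), and none passed. No gene of the 10 passed in edgeR in any of the 4, where the share of all genes that passed was 0.454% and 0.225% in KO and 0.00522% and 0% in WT. At an unadjusted p under 0.05, 4 and 7 of the 10 were found in KO (9.42% and 18.8% of all genes) and 3 and 1 in WT (14.4% and 2.01%). DESeq2 called 2 and 1 in KO and 2 and 0 in WT, the last with no adjusted p for 9 of the 10. The share of all genes that DESeq2 called in these 4 comparisons is not given here, so its counts have no background.

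BMX-001 was set against its absence in 3 ways, and none of the 10 genes passed in edgeR or DESeq2 in any. With 5-FU present, both drugs over 5-FU alone gave log2 differences of -0.62 (Phlda3) to -0.02 (Bax) in KO, below 0 for all 10 genes, and of -0.51 (Phlda3) to 0.69 (Eda2r) in WT. Adjusted p was 1 in KO and 0.998 in WT for every gene, 0% of all genes passed in either, and 0 and 1 of the 10 had an unadjusted p under 0.05 (2.61% and 3.93% of all genes). The median difference over the 10 genes was -0.15 in KO and 0.07 in WT, against 0.00 over all genes. The 5-FU effect with BMX-001 minus that without ran from -0.27 to 0.77 (adjusted p 0.582 to 0.995, 0 of the 10 and 8.35% of all genes at an unadjusted p under 0.05, 0% of all genes called). BMX-001 alone over PBS gave -0.54 (Eda2r) to 0.21 (Trp53inp1), with adjusted p of 0.209 to 0.835, 1 of the 10 and 21% of all genes at an unadjusted p under 0.05, and 0% of all genes called.

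**Figure D5:**
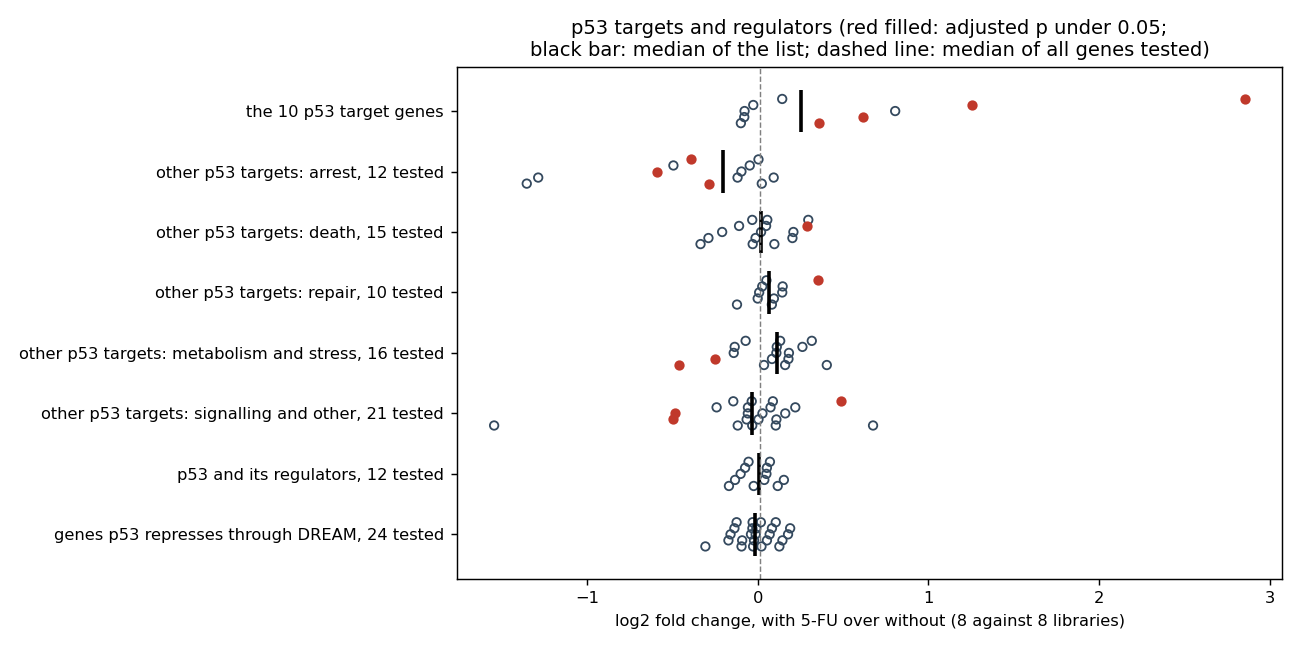
Log2 fold change of each gene with 5-FU over without (x axis, 8 against 8 libraries) for the 10 genes, 5 lists of other p53 targets, p53 with its regulators, and genes that p53 represses through the DREAM complex, with red filled points past the threshold and black bars at list medians. The medians are 0.25 for the 10 genes, 0.01 for p53 and its regulators and -0.02 for the DREAM list, and the dashed line marks the median of all genes, 0.01.

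Of 76 other p53 targets, 74 were tested, and 3 rose and 7 fell (0.559% and 2.39% of all genes), with a median log2 fold change of 0.01, while DESeq2 called 5 higher and 10 lower. Polk, a translesion DNA polymerase, rose on the log2 scale by 0.35 ± 0.07 (SE; adjusted p = 0.017), to 12.6 ± 1.25 CPM with 5-FU against 9.91 ± 1.17 CPM without (SD, n = 8 each). Aen, a nuclease of apoptotic cells, rose by 0.29 ± 0.07 (adjusted p = 0.035), and Pvt1, a long noncoding RNA, by 0.49 ± 0.12 (adjusted p = 0.0393).

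All 3 called genes of the arrest list lay lower with 5-FU. Gadd45a, a growth arrest and DNA damage gene, stood at 60.7 ± 5.45 CPM with 5-FU and 91.3 ± 14.3 CPM without (SD, n = 8 each). Its ranges were 54.4 to 71.4 CPM and 70.2 to 108 CPM. Gadd45a fell on the log2 scale by 0.59 ± 0.09 (SE, adjusted p = 0.00273). Ptp4a3, a phosphatase, fell by 0.29 ± 0.05 (adjusted p = 0.00907), and Btg2, an antiproliferative factor, by 0.39 ± 0.10 (adjusted p = 0.0475). Among metabolic targets the peroxidase gene Gpx1 fell by 0.46 ± 0.09 (adjusted p = 0.0132) and Sesn1, a paralogue of Sesn2, by 0.25 ± 0.05 (adjusted p = 0.0254). Abhd4, a lipid hydrolase, fell by 0.50 ± 0.06 (adjusted p = 0.00031) and Epha2, an ephrin receptor, by 0.49 ± 0.11 (adjusted p = 0.0391). Over 24 other fits, Gadd45a and Abhd4 passed in 24, Ptp4a3 in 23, Gpx1 in 22 and Polk in 17, while Sesn1 passed in 12, Pvt1 in 11, Aen and Epha2 in 10 and Btg2 in 7.

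Trp53 itself did not pass, at 95.8 ± 5.81 CPM with 5-FU and 93.5 ± 21.4 CPM without (SD, n = 8 each, log2 fold change 0.05 ± 0.13, 95% interval -0.22 to 0.33, adjusted p = 0.859). Its low value of 43.0 CPM was in KO BMX-001 replicate 1, and without that library the log2 fold change was -0.06 (adjusted p = 0.43). Of 15 listed regulators of p53, with Trp53 among them, 12 were tested and none passed in edgeR, 3 had an unadjusted p under 0.05 (18.1% of all genes) and DESeq2 called 1 lower. Of 24 genes that p53 represses through DREAM none passed in edgeR, 5 had an unadjusted p under 0.05, against the same 18.1%, and DESeq2 called 1 higher and 1 lower. The list medians were 0.01 and -0.02.

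Transcripts of red cell precursors moved with 5-FU alongside these genes. Of 12 erythroid markers 8 fell and none rose, with a median log2 fold change of -0.42, and Xpo7 (-0.83 ± 0.09), Epb42 (-0.51 ± 0.06) and Alas2 (-0.59 ± 0.07) had the smallest p. Their summed level was 25681 to 29130 CPM with 5-FU and 38407 to 44602 CPM without in KO, and 24006 to 31411 CPM with 5-FU and 31015 to 40555 CPM without in WT. None of the markers of granulocyte precursors, neutrophils, monocytes, B cells, plasma cells, T and NK cells, stem cells, megakaryocytes or stromal cells passed in edgeR, 20 of these 68 genes had an unadjusted p under 0.05 (18.1% of all genes), and DESeq2 called 4. List medians ran from -0.29 for B cells to 0.45 for stroma and 0.53 for megakaryocytes, and the summed stromal level was 376 to 880 CPM with 5-FU and 198 to 673 CPM without. The part of these shifts in the values of the p53 targets was not tested.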

How the data were processed

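Total RNA from 16 mouse bone marrow samples was sequenced, and the deposited values are raw counts for each Ensembl gene in 1 column per library. Per the submitters' processing notes, the tools were featureCounts, Salmon 1.4.0, FastQC 0.12.1, Trim Galore 0.6.4, R 4.3.0 and DESeq2 1.38.3, with the build GRCm39. Aligner, annotation release and strand setting were not given in the sources used here. Symbols came from a GENCODE annotation of an earlier build and were found for 51880 of 57132 IDs. Groups followed the labels.

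Counts were filtered with filterByExpr (19152 genes left), scaled with TMM factors and fitted as 8 group means with edgeR 4.0.16 (limma 3.58.1, R 4.3.3), robust quasi-likelihood, 8 residual degrees of freedom. The fit was also run on simulated counts with planted changes, and the outcome is not reported here. P-values were adjusted over all genes within each of 14 comparisons. Genotype-averaged effects weight the 4 pairs of groups equally. SD and means are of normalised CPM. Intervals are 95% and cover the spread between libraries.

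All 10 genes are named in the 5-FU effects; in other comparisons genes that pass are named and otherwise the ends of the range. From other lists up to 3 genes per direction of smallest p that pass are named, and Trp53. The 10 genes and the lists (205 symbols, all matched) were chosen with earlier results of these data known. Alternatives were DESeq2 1.42.0, other scalings and filters, no robust estimation, a replicate block, fits within 1 genotype and leaving out libraries. Promoters are RefSeq, GRCm38.p6. Of the 10 genes Eda2r had the fewest counts, 440 over the 16 libraries.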

Additional observations from a re-analysis of the deposited data

Results flagged for a closer look

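A single library lay far from the other 3 of its genotype without 5-FU for 2 of the 10 genes, among 40 sets of 4 libraries looked at, where chance gives about 1 in 20. Cdkn1a in WT PBS replicate 2 stood at 20.4 CPM while the other 3 WT libraries without 5-FU lay at 7.62 to 8.83 CPM. Mdm2 in KO BMX-001 replicate 1 stood at 94.1 CPM while the other 3 KO libraries without 5-FU lay at 60.1 to 64.0 CPM.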

How the results depend on the processing

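Over both genotypes, Eda2r and Phlda3 passed under every alternative that gave an adjusted p, and DESeq2 gave none for Eda2r there, in WT or in KO. The number of the 10 genes that passed, 4 with all libraries, was 2 to 5 with 1 library left out. In WT (1) it was 0 with DESeq2, upper-quartile factors or a minimum of 1 CPM in 2 libraries, 3 with no filter, 2 in the WT libraries alone and 0 to 3 with 1 library left out. In KO (2) it was 4 with DESeq2, 5 with no filter, 0 in the KO libraries alone, 5 without both deviating libraries and 1 to 6 with 1 left out. In the 2-against-2 comparisons (0), 5-FU over PBS gave 2 with DESeq2 and 3 with no filter in either genotype, and 0 to 3 (WT) and 0 to 1 (KO) with 1 library left out. Both drugs over BMX-001 gave 2 (WT) and 5 (KO) with no filter, 1 with DESeq2 (KO), and 0 to 1 (WT) and 0 to 6 (KO) with 1 left out. With 5-FU, KO against WT gave 1 with no filter. With 1 left out, some of the 10 also passed for KO minus WT and for the 5-FU effect with BMX-001 minus without. The same held for BMX-001 over PBS and for KO against WT without 5-FU. Shares of all genes under the alternatives are given here only for the 5-FU effects over both genotypes, in WT and in KO. Counts of the 10 genes in the other comparisons therefore have no background. The high ends in KO came when KO BMX-001 replicate 2 was left out, so that the deviating replicate 1 alone stood for its group and was assumed to vary like the others. The counts take in either direction. With 1 library left out, Mdm2 passed as lower over both genotypes (log2 fold change -0.15) and in KO (-0.32). Trp53inp1 passed as lower in KO (-0.30), and both genes had negative values where they passed for KO minus WT (-0.35 each). The cause of these changes was not tested. Signs turned for values near 0: without both deviating libraries Mdm2 was 0.032 and Bbc3 0.041 over both genotypes and Sesn2 0.037 for KO minus WT. With 1 library left out, ranges were -0.15 to 0.010 for Mdm2 and -0.067 to 0.024 for Bbc3 over both genotypes, and in WT -0.011 to 0.080 for Mdm2, -0.056 to 0.067 for Bax and -0.18 to 0.041 for Sesn2. For KO minus WT they were -0.0026 to 0.28 for Ccng1, -0.13 to 0.36 for Zmat3, -1.03 to 0.77 for Eda2r and -0.13 to 0.084 for Sesn2. Differences between replicates 1 and 2 correlated across 28 pairs of groups at r of -0.391 to 0.196 (median 0.009, 6 over 0.1). These values cannot settle whether same-numbered libraries are paired samples. A replicate block left every count of the 10 genes within 1.5 times, and 74 genes rose and 398 fell over both genotypes with it, against 107 and 458 without. Over all genes, the other alternatives gave 105 to 735 higher and 436 to 1045 lower, and leaving out 1 library 24 to 2585 and 210 to 2002. In WT (2 and 9) the alternatives gave 1 to 123 higher and 3 to 307 lower, in KO (31 and 333) 0 to 843 and 64 to 947.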
